A study of Rattus norvegicus with 4 samples.

Results

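Transcripts of antioxidant enzymes and of the Nrf2 response were examined in glomeruli of 4 rats injected with Adriamycin (ADR, doxorubicin). The members were chosen by gene symbol from a set of 10: the secreted glutathione peroxidase Gpx3, the cell-wide enzymes Gpx1, Gpx4, Sod1, Sod2 and Cat, the Nrf2 gene Nfe2l2, and the Nrf2 targets Hmox1, Nqo1 and Gclc. A row was found for 9 of the 10, among 13261 genes used; Gpx4 was not analysed here. Gpx3 was included because of its high level in these same libraries, so its level below is a description and is not tested. All animals were male Wistar rats of about 150 to 175 g and received ADR intravenously; they form 1 group of 4, with no untreated or vehicle group among the samples analysed here. Harvest is labelled as day 11 or 21, without saying which day applied to which animal. ADR is an anthracycline that injures podocytes in rodents, and glomeruli were isolated through sieves, so a preparation can also hold pieces of tubule. Nothing in the labels ties the samples to separate litters, days or cages, and p-values below measure only the spread between these 4 samples, numbered as replicates 1 to 4.

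Cells remove superoxide in steps. Superoxide dismutases turn it into hydrogen peroxide, and catalase, glutathione peroxidases and peroxiredoxins reduce the peroxide to water. Nrf2 is a transcription factor that the adaptor Keap1 marks for degradation; when oxidants or electrophiles modify Keap1, Nrf2 accumulates, binds antioxidant response elements with small Maf proteins, and raises genes for glutathione synthesis, quinone reduction and haem breakdown. In the kidney, GPX3 protein is made mainly by proximal tubule cells and released to plasma and the basement membrane, whereas GPX1, SOD1, SOD2 and catalase are found in most cell types.

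The stretch of 250 bases before the transcription start is shown for 4 genes, chosen after their values were seen, as examples of different patterns over the animals: Gpx3 and Gpx1, a pair of peroxidases with unequal spread, Sod2, which followed the same order of animals as Gpx3, and Nqo1, which was highest where Gpx3 was lowest. Sequences are those of RefSeq on the build GRCr8, written 5′ to 3′ on the strand of the gene; the reads were placed by the authors on another build and no value was joined by position. Capitals mark the antioxidant response element core (TGACNNNGC) and the GC box (GGGCGG, a binding motif of Sp1), each searched on both strands.
Gpx3, chr10:39529085-39529334, plus strand: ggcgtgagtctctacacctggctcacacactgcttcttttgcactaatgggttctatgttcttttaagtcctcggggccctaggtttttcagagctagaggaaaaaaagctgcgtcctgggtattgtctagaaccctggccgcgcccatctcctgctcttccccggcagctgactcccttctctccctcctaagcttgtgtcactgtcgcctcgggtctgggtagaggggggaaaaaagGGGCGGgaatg
Gpx1, chr8:117905212-117905461, plus strand: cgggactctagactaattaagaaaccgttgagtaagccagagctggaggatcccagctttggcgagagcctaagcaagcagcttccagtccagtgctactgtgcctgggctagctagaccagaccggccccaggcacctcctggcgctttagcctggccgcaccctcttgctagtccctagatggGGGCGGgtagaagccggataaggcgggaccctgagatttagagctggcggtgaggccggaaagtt
Sod2, chr1:50050169-50050418, minus strand: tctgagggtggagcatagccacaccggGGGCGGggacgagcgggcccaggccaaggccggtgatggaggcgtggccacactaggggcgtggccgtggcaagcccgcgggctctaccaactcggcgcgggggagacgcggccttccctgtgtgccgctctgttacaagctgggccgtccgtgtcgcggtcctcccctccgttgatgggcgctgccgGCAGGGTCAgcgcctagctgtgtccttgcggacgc
Nqo1, chr19:52220268-52220517, minus strand: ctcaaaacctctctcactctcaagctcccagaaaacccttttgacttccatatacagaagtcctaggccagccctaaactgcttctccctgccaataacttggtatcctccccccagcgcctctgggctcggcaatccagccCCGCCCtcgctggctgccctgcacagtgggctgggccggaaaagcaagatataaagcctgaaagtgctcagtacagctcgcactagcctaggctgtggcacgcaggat
Promoters were listed for 8 of the 9 members, all but Hmox1. A GC box was found in 7 of the 8 and in 30.5% of all 33469 listed promoters over the same 250 bases. It lay at bases -11 to -6 from the start in Gpx3 and at -65 to -60 in Gpx1. The antioxidant response element core was found in 1 of the 8, Sod2, at bases -35 to -27 on the opposite strand, and in 10.1% of all promoters. Sod2 held both motifs, and its GC box at -223 to -218 did not overlap the core; in Nqo1 the GC box lay on the opposite strand at -108 to -103. A match describes letters in a short window and is no site, and a missing match says only that these letters are not in that window.

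Libraries held 13566962 to 16207027 reads in the genes used. Protein-coding mitochondrial genes took 7.46%, 12.5%, 9.34% and 7.56% of reads in replicates 1 to 4. Markers were set beside the label glomerular. All 12 podocyte markers and 9 of the 10 listed glomerular endothelial markers had a row. No podocyte marker was below 165 reads (Magi2) in any library. Every gene used had a mean of at least 16 reads, so the presence of a marker with a row does not check the label. All 14 proximal tubule markers were present too, and none was below 852 reads (Slc5a12). The summed level of the proximal tubule markers was 9766, 7741, 4794 and 7504 CPM (reads scaled to a common library total) in replicates 1 to 4. It was highest in replicate 1 and lowest in replicate 3. The podocyte markers summed to 11922, 6919, 9080 and 10761 CPM, below the proximal tubule sum in replicate 2 and above it in the others. In bulk RNA, fewer cells of a type and less RNA per cell cannot be told apart.

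Gpx3 (ENSRNOG00000052564), the secreted selenium-containing peroxidase, had 8118, 5363, 3438 and 5745 CPM in replicates 1 to 4, from 110137, 86927, 52770 and 87580 reads. Replicate 1 was high, replicate 3 was low, and the other two lay close together. The mean was 5666 ± 1921 CPM (SD, n = 4), position 9 of all genes by mean CPM, a scale not corrected for transcript length. Position 10 was held by Mt-nd5 at 4185 CPM and position 11 by Cst3 at 3935 CPM, the values just inside and just outside the 10 highest. Between replicates 1 and 3 the ratio was 2.36, with a 95% interval of 2.34 to 2.39 that covers counting error only. The SD on the log2 scale was 0.51, larger than that of 94.1% of genes, and 0.32 without replicate 3.

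Cell-wide enzymes varied less. Gpx1, the cytosolic and mitochondrial glutathione peroxidase, had 339, 318, 282 and 340 CPM in replicates 1 to 4, a mean of 320 ± 27.4 CPM (SD, n = 4). Replicate 3 was low and replicates 1 and 4 were nearly equal. Sod1, the cytosolic copper-zinc superoxide dismutase, had 247, 234, 193 and 198 CPM, with replicates 1 and 2 above 3 and 4. Sod2, the manganese enzyme of mitochondria, had 121, 107, 98.1 and 115 CPM, again with replicate 1 highest and replicate 3 lowest. Cat, the peroxisomal catalase that breaks down hydrogen peroxide, had 234, 256, 202 and 216 CPM, with replicate 2 highest. Ratios of the highest to the lowest animal were 1.21 for Gpx1, 1.28 for Sod1, 1.23 for Sod2 and 1.27 for Cat. The largest upper bound of their counting intervals was 1.34, for Sod1, against the lower bound of 2.34 for Gpx3.

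**Figure D1:**
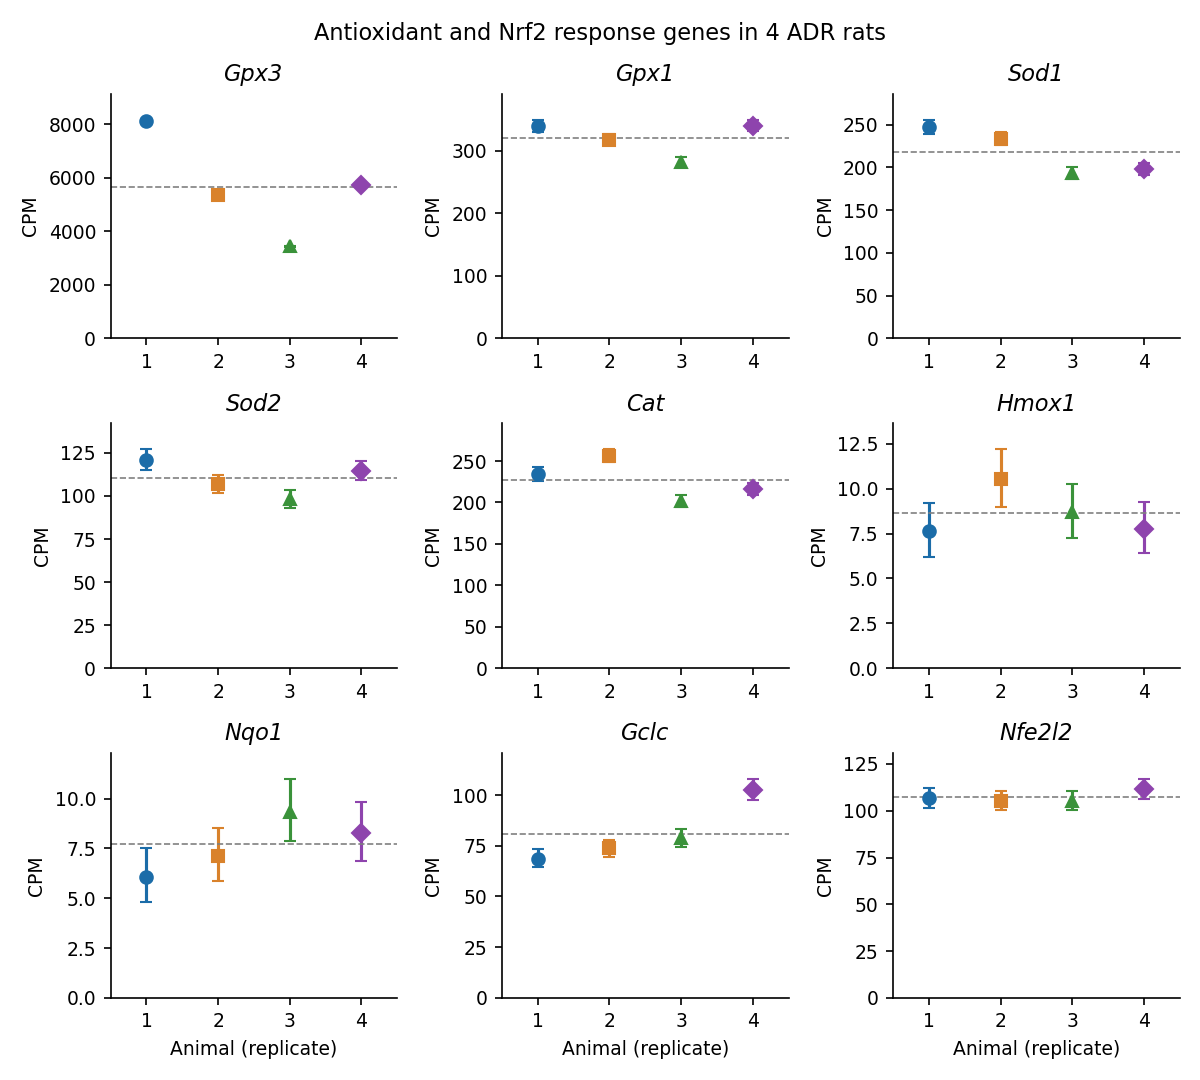
Level of each of the 9 genes in CPM (vertical axes, each from 0) in the 4 animals (horizontal axes); bars are 95% Poisson intervals for counting error and the dashed line is the mean of the animals. Gpx3 runs from 3438 to 8118 CPM, whereas Nfe2l2 stays between 105 and 111 CPM.

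Replicate 3 was lowest for Gpx3 and for all 4 cell-wide enzymes analysed, and it remained the lowest for each of the 5 under the 3 other scalings tried. Over all genes, 19.6% were lowest in replicate 3. Highest in replicate 1 were 3 of the 9 members (27.7% of all genes) and lowest in replicate 1 were 3 (35%). In replicate 2, 2 members were highest (21.3%) and 1 was lowest (31.5%), in replicate 3, 1 was highest (29.6%), and in replicate 4, 3 were highest (21.4%). The highest animal was less stable: for Gpx1 it was replicate 4 as deposited and replicate 1 under TMM-type or median-of-ratios scaling, and for Sod1 it became replicate 2 with mitochondrial genes out of the totals. All 14 proximal tubule markers were also lowest in replicate 3, and their part in the levels of these enzymes was not tested.

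Gpx3 was then compared with the enzymes within each animal. Transcript lengths were not used here, so its level relative to theirs is not given; the change of that difference from animal to animal does not depend on length. The log2 difference between Gpx3 and the mean of Gpx1, Sod1, Sod2 and Cat departed from its own mean by 0.47, -0.07, -0.49 and 0.10 in replicates 1 to 4, an SD of 0.40. From replicate 3 to replicate 1, Gpx3 thus changed 1.94-fold more than the enzymes did on average. Against single enzymes that figure ran from 1.85-fold for Sod1 to 2.03-fold for Cat.

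The pattern of Gpx3 over the animals was set beside marker genes. Centred on its mean, log2 Gpx3 stood at 0.58, -0.01, -0.66 and 0.09 in replicates 1 to 4, and the mean of the 14 proximal tubule markers stood at 0.44, 0.11, -0.62 and 0.07. The difference between Gpx3 and that marker mean had an SD of 0.11 over animals, where Gpx3 alone had 0.51. The SD of that difference was 0.07, 0.09, 0.13 and 0.14 without replicates 1, 2, 3 and 4 in turn. With the median of the markers in place of the mean it was 0.06. Podocyte markers followed another pattern, with a mean of 0.44, -0.60, -0.07 and 0.24, and the SD of Gpx3 minus the podocyte mean was 0.49. Levels of the proximal tubule markers moved with Gpx3 in these 4 libraries, and their part in its spread was not tested.

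Among 11178 other genes with a mean of at least 100 reads and a unique symbol, the 5 nearest to Gpx3 in centred log2 value over the 4 animals were Lgmn, Fbp1, Sorcs2, Gas2 and Tmem37. Lgmn, which encodes the lysosomal protease legumain, had a root mean square difference of 0.03 and counted 10890, 9040, 5333 and 8911 reads in replicates 1 to 4. Fbp1, a gluconeogenic enzyme gene on the proximal tubule list, differed by 0.04 and counted 4794, 4004, 2440 and 3886 reads. The range of the 5 was 0.03 to 0.05. Of the other proximal tubule markers, Lrp2 (megalin, the endocytic receptor) was at position 11 of this ordering and Slc13a3 at 15, whereas Miox was at 1442 and Slc13a1 at 3590, so the list was not uniform. Sod2 was at position 1195, Sod1 at 1295, Gpx1 at 1376 and Cat at 2237. With 4 animals many genes share a pattern, so this ordering is a description.

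**Figure D2:**
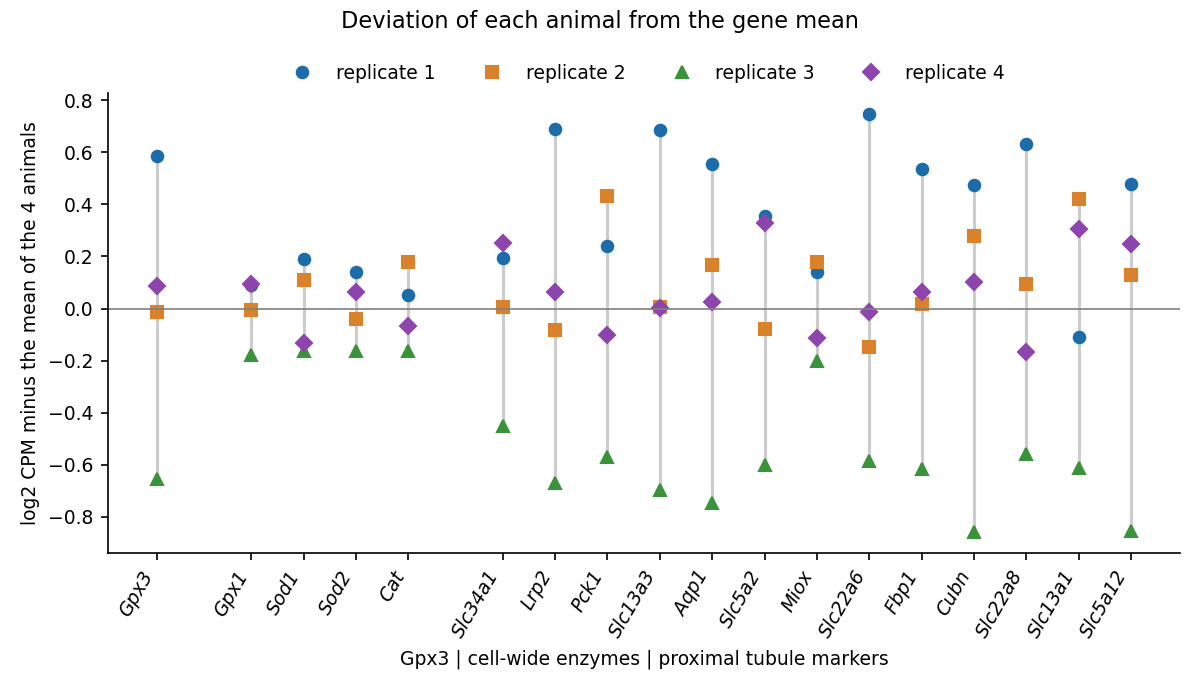
Deviation of log2 CPM in each animal from the mean of the gene (vertical axis) for Gpx3, the 4 cell-wide enzymes and 13 of the 14 proximal tubule markers (horizontal axis); symbols are single animals and grey lines join the extremes. Replicate 3 is lowest for all of these genes, and the SD is 0.51 for Gpx3, 0.13 for Gpx1 and 0.19 to 0.59 for the markers.

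The order of animals seen for Gpx3 was found for 1 of the 8 other members, Sod2 (5.47% of all genes), and for none of Nfe2l2, Gclc, Nqo1 and Hmox1, nor of Gpx1, Sod1 and Cat. Nfe2l2 (ENSRNOG00000001548), the Nrf2 gene itself, was nearly level at 107, 105, 105 and 111 CPM in replicates 1 to 4. Its mean was 107 ± 2.94 CPM (SD, n = 4), its ratio of highest to lowest was 1.06, with a counting interval of 0.99 to 1.13, and its SD of 0.04 exceeded that of 1.92% of genes. Without replicate 4, the highest, the SD of Nfe2l2 was 0.01. Much of Nrf2 control acts on the protein, which was not measured.

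Gclc, the catalytic subunit of glutamate-cysteine ligase and the limiting step of glutathione synthesis, had 68.7, 73.7, 78.7 and 102.7 CPM in replicates 1 to 4. Replicate 4 stood above the others, and the ratio to replicate 1 was 1.49 with a counting interval of 1.38 to 1.62. Without replicate 4 the SD on the log2 scale went from 0.25 to 0.10. Nqo1, the quinone reductase, had 6.08, 7.13, 9.35 and 8.30 CPM from only 82, 115, 143 and 126 reads. It was highest in replicate 3, where Gpx3 was lowest, and lowest in replicate 1, where Gpx3 was highest. Hmox1, the inducible haem oxygenase, had 7.63, 10.5, 8.70 and 7.77 CPM from 103, 170, 133 and 118 reads, with replicate 2 highest. Without replicate 2 the SD of Hmox1 went from 0.21 to 0.10. Which animal was lowest for Hmox1 depended on the scaling (replicate 1 as deposited, replicate 4 under TMM-type or median-of-ratios factors).

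The ratio of highest to lowest was 1.54 for Nqo1 (interval 1.17 to 2.05) and 1.38 for Hmox1 (interval 1.08 to 1.78). The depth at these genes leaves wide intervals. A single Hmox1 value of 10.5 CPM in replicate 2 spans 8.97 to 12.2 CPM by counting alone. The 3 genes nearest to Nqo1 by the same measure were LOC100360380, Rbm3 (a cold-induced RNA-binding protein) and Lcp2 (a signalling adaptor of leukocytes), all with a root mean square difference of 0.01. Markers of macrophages and leukocytes, cells that express Hmox1, summed to 1235, 1558, 1440 and 1369 CPM in replicates 1 to 4, with 11 of 12 listed markers present and none at 0. Which animal had the highest sum depended on single genes: without Cd74 the other 10 summed to 581, 781, 824 and 803 CPM, highest in replicate 3, and without Cd74 and Lyz2 the other 9 summed to 359, 439, 404 and 357 CPM, highest in replicate 2. By gene, 6 of the 11 were highest in replicate 2 (21.3% of all genes), where Hmox1 was highest. Another 4 were highest in replicate 3 (29.6%) and 1 in replicate 4 (21.4%). The part of these markers in the level of Hmox1 was not tested. Of the 9 members, Gpx3 and Nqo1 (1.49 under TMM-type or median-of-ratios scaling) had a ratio over 1.5, which 30.1% of all genes had, and Gpx3 alone a ratio over 2, which 9.05% had.

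Spread between animals was tested first against counting error. Variation beyond Poisson sampling was found for 8 of the 9 members, all but Nfe2l2 (chi-square index of dispersion on recovered reads, 3 degrees of freedom, Benjamini-Hochberg adjusted p under 0.05 over all genes). The share of all genes called was 69.5%, so the count of members is near that background. Gpx3 had the largest statistic of the members, 28443, but also the most reads, and at equal relative spread this statistic grows with reads. Adjusted p was 5.92e-22 for Gpx1, 6.82e-30 for Sod1, 5.42e-08 for Sod2, 1.1e-23 for Cat and 5.19e-26 for Gclc by this chi-square test, and 0.336 for Nfe2l2. The calls for Hmox1 (adjusted p = 0.0346) and Nqo1 (adjusted p = 0.0156, same chi-square test) did not hold in every set of 3 animals. Hmox1 was no longer called without replicate 1 (0.057, with an SD of 0.22) or replicate 2 (0.597, SD 0.10), against an SD of 0.21 over all 4. Nqo1 was no longer called without replicate 1 (0.143, SD 0.20) or replicate 3 (0.122, SD 0.22), against 0.27 over all 4.

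A further test, limma's trend of the residual variance on the mean level, asked whether a member was more variable than other genes at its level. It called 0 of the 9 members and 0 of 13261 genes at an adjusted p under 0.05, a share of 0%. At an unadjusted p under 0.05 it passed 0 members and 725 genes, or 5.47%. The smallest unadjusted p among members was 0.164, for Gclc, and Gpx3 had 0.326 (limma; adjusted p = 0.965 and 0.98). A second statistic, a Pearson statistic on recovered reads with the dispersion trend held fixed, called 1 of the 9 members, Gpx3 (adjusted p = 0.0139), where it called 7.53% of all genes. Without replicate 1 the adjusted p of Gpx3 was 0.303 by this Pearson statistic, with an SD of 0.40, and without replicate 3 it was 0.469, with an SD of 0.32. The share of all genes called was then 5.03% and 4.61%.

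**Figure D3:**
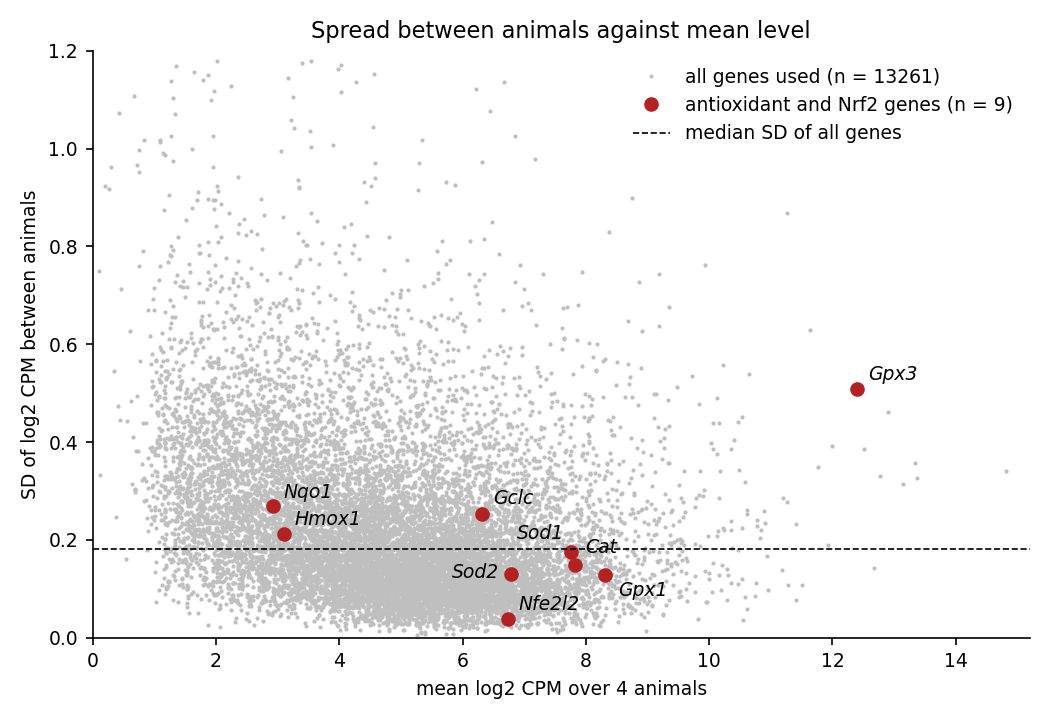
SD of log2 CPM between the 4 animals (vertical axis) against mean log2 CPM (horizontal axis) for all genes in grey and the 9 members in red; 33 genes lie outside the axes, and the dashed line is the median SD of all genes, 0.18. Gpx3 lies at 0.51 and Nfe2l2 at 0.04.

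The wider system was described with 9 antioxidant or Nrf2 lists and 1 list of oxidant-producing enzymes, which together hold 121 genes besides the members, of which 102 had a row. Variation beyond counting noise was found for 77 of the 102 (chi-square test as above, against 69.5% of all genes), and 12 passed the fixed-trend statistic, against 7.53%; 2 of the 12, Rac2 and Nox4, produce oxidants or help to. Of the 12 calls, 3 held without replicate 1, 11 without replicate 2, 4 without replicate 3 and 7 without replicate 4. Only 1, that of Nox4, held in all 4 cases. In the same sets of 3 animals, the calls among the 102 numbered 4, 13, 4 and 7. The share of all genes called was 5.03%, 5.36%, 4.61% and 4.73% in turn. By limma's trend 0 of the 102 were called, as were 0% of all genes. At an unadjusted p under 0.05 it passed 6 of the 102, against 5.47% of all genes. Their median SD was 0.20, and that of all genes was 0.18. Lowest in replicate 3 were 39 of the 102, against 19.6% of all genes. The order of animals of Gpx3 (replicates 1, 4, 2, 3 from high to low) was followed by 16 of the 102, against 5.47%. Of the 16, 3 were on the oxidant-producing list. Some of the 16 were near ties whose order depends on the scaling. Glrx, for example, had 16.3 and 15.9 CPM in replicates 4 and 2 (adjusted p = 0.941, chi-square test against counting noise). Genes of a library are not independent, and the proximal tubule markers, 14 of 14 lowest in replicate 3, moved the same way.

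The other glutathione peroxidases with a row had a lower SD than Gpx3. Gpx2, the epithelial form, had 10.7, 16.6, 8.44 and 9.81 CPM, with replicate 2 above the rest and a ratio of 1.97. Gpx7 and Gpx8, which work in the endoplasmic reticulum, each had a ratio of 1.22; this pair was named after their values were seen. Among the dismutases, the extracellular enzyme Sod3 had 329.7, 222.8, 181.7 and 280.5 CPM, in the same order of animals as Gpx3. Sod3 had an SD of 0.38, where Sod1, Sod2 and the copper chaperone gene Ccs had 0.18, 0.13 and 0.09 (0.05 for Ccs without replicate 4). Its fixed-trend adjusted p was 0.0891, short of the threshold. The extracellular enzymes, Gpx3 and Sod3, each had the largest SD of their list, except that without replicate 1 or 3 that of Gpx2 exceeded that of Gpx3.

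Selenoproteins such as GPX3 need selenium, which reaches kidney cells mainly as selenoprotein P (Selenop) taken up through megalin (Lrp2). Lrp2 was the highest gene of the selenium list by CPM and the one with the largest SD. It had 1923, 1127, 750.6 and 1248 CPM in replicates 1 to 4, a ratio of 2.56, and was called at the fixed trend (adjusted p = 0.00182), though not without replicate 1 (0.335) or replicate 3 (0.163). Selenop, named after its values were seen, had 795.5, 503.4, 407.3 and 673.2 CPM. Both followed the order of Gpx3, and Lrp2 is also a proximal tubule marker. Secisbp2, a factor that places selenocysteine during translation, was also named after its values were seen. It was lowest in replicate 1, the smallest library, with 40.6 CPM against 51.1 to 61.3 CPM in the others (551 reads against 779 to 993). The receptor gene Lrp8 was the lowest of the list at 9.10 ± 0.88 CPM (SD, n = 4).

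Over 14 Nrf2 regulators the median SD was 0.14, against 0.18 for all genes, and 6 of the 14 had an SD above that of the median gene; the difference was not tested. As deposited, 0 of the 14 were lowest in replicate 3 (19.6% of all genes) and 9 were lowest in replicate 2 (31.5%). Under the 3 other scalings 1 or 2 were lowest in replicate 3 and 7 in replicate 2. Keap1, named after its values were seen, had 79.0, 80.9, 77.7 and 76.9 CPM, a ratio of 1.05. The related factor Nfe2l1 was the highest of the list, at 464 ± 66.2 CPM (SD, n = 4), and the repressor gene Bach2 the lowest, at 5.57 ± 0.80 CPM. Gsk3b, a kinase that promotes Nrf2 degradation, had the largest SD, 0.25, with a ratio of 1.51. Without replicate 2 its SD was 0.16 and that of Maff was the largest, and without replicate 1 that of Btrc was.

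Of 24 Nrf2 target genes with a row, 20 varied beyond counting noise (69.5% of all genes) and 4 passed the fixed trend (7.53%): Idh1, Abcc2, Ugt1a6 and Akr1b8 (Ugt1a6 named after its values were seen). The order of animals of Gpx3 was found for 5 of the 24 (5.47% of all genes), Ugt1a6 and Akr1b8 among them. In some of the 5, replicates 4 and 2 nearly tied, so this count depends on the scaling. Lowest in replicate 3 were 11 of the 24 (19.6%), or 12 to 13 under the other scalings. Idh1, the cytosolic isocitrate dehydrogenase that makes NADPH, had 291, 168, 185 and 141 CPM (fixed-trend adjusted p = 0.0012, and 0.812 without replicate 1 or 0.0665 without replicate 4). Replicate 1 was apart and replicate 4 was lowest. Akr1b8, an aldo-keto reductase, had 15.7, 7.87, 6.94 and 9.68 CPM, a ratio of 2.26 and the largest SD of the list, 0.52 (0.24 without replicate 1, where Abcc2 had the largest; without replicate 3, Idh1 did). Abcc2, an export pump of the apical membrane, had 298, 252, 159 and 222 reads, with an adjusted p of 0.049 at the fixed trend, just inside the threshold. The calls of Abcc2 and Ugt1a6 were lost without replicate 1, 3 or 4, and that of Akr1b8 without replicate 1, 2 or 3. The haem transporter gene Slc48a1 was the highest of the list at 398 ± 61.6 CPM (SD, n = 4) and Nqo1 the lowest. Gclm, the partner subunit of Gclc and named after its values were seen, had 43.6, 46.3, 39.9 and 43.1 CPM, a ratio of 1.16, where Gclc had 1.49. Replicate 4 was highest for Gclc and replicate 2 for Gclm.

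Genes of glutathione synthesis and reduction had a median SD of 0.19, and 4 of the 8 lay above the median gene. Glrx, a glutaredoxin, was the lowest of that list at 16.2 ± 0.40 CPM (SD, n = 4) with a ratio of 1.06. Ggt1, the apical enzyme that splits extracellular glutathione, had the largest SD, 0.32 (that of Gclc was the largest without replicate 3), at 96.0, 123.8, 80.1 and 127.2 CPM. Slc3a2, the heavy chain of amino acid exchangers, was the highest at 244 ± 42.4 CPM. Thioredoxin and peroxiredoxin genes had a median SD of 0.12 over 15 genes. Txnip, an inhibitor of thioredoxin, was highest at 761 ± 84.0 CPM, Txnrd3 was lowest at 8.51 ± 0.70 CPM, and Sesn3, a stress-induced sestrin, had the largest SD, 0.38 (fixed-trend adjusted p = 0.0114; without replicate 1 the SD was 0.21 and adjusted p = 0.69), with 46.8 CPM in replicate 1 and 25.9 to 34.1 CPM in the others.

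Glutathione S-transferases, which join glutathione to electrophiles, held 4 genes that passed the fixed trend, of 14 with a row (7.53% of all genes). Gsta1 had 190.6, 114.8, 96.7 and 81.0 CPM (fixed-trend adjusted p = 2.86e-07), and Gsta4 had 37.8, 39.3, 18.5 and 23.5 CPM (fixed-trend adjusted p = 0.000303). The call of Gsta1 was lost without replicate 1 (adjusted p = 0.303 at the fixed trend, Pearson statistic) and that of Gsta4 without replicate 3 (0.186). Gsta1 was high in replicate 1, whereas Gsta4 separated replicates 1 and 2 from 3 and 4. The others were Gsta2, lost without replicate 3 or 4, and Mgst3, lost without replicate 1, 3 or 4, both named after their values were seen. Gstp1, the highest of the list at 183 ± 8.68 CPM (SD, n = 4), was nearly even, at 172, 181, 184 and 193 CPM, and Gsta3 was lowest at 2.10 ± 0.46 CPM. Alpha-class transferases are close copies of each other, so the division of reads between Gsta1, Gsta2 and Gsta3 is uncertain.

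**Figure D4:**
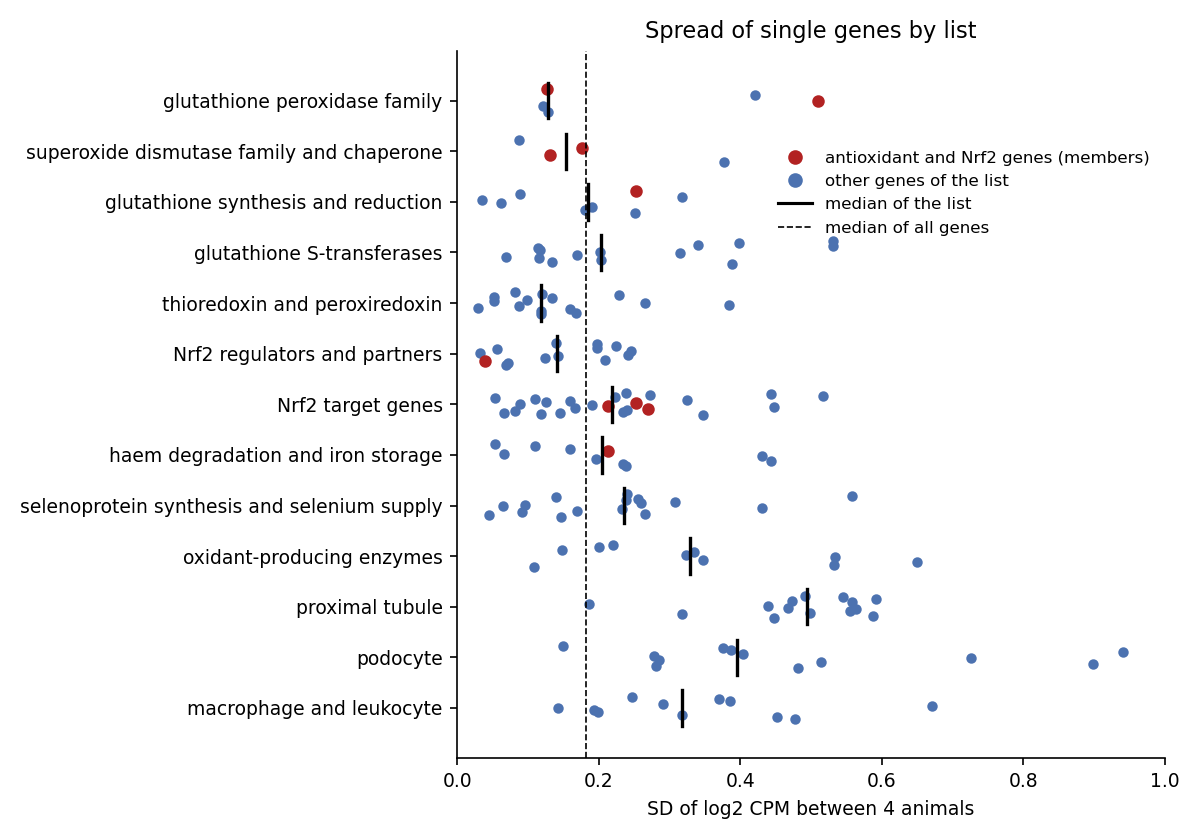
SD of log2 CPM between the 4 animals (horizontal axis) for single genes of 9 antioxidant or Nrf2 lists, 1 list of oxidant-producing enzymes and 3 marker lists (rows); members are red, other genes blue, black bars are list medians and the dashed line is the median of all genes, 0.18. The median is 0.12 for thioredoxins and peroxiredoxins, 0.14 for Nrf2 regulators and 0.49 for proximal tubule markers.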

How the data were processed

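Poly(A) RNA of sieved glomeruli was sequenced from 4 rats of 1 group. The deposited table holds log2 values per gene and sample under Ensembl identifiers. HISAT2, featureCounts, Subread and limma, and the build Rnor_6.0, are named in the submitters' processing notes, with no versions; the annotation release, strand setting and filter on low genes are not given in the sources used here. Read from the values, each deposited log2 value is that of a whole read count plus 0.5, scaled to CPM; 100% of values came out whole within 0.01 reads. Of 13265 rows, 4 with displaced values were left out; 0 value columns belonged to no sample. Depth was 13566962 to 16207027 reads, and Poisson or exact binomial 95% intervals cover counting error only.

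Levels and SDs use the deposited log2 values and CPM. The main test of excess variance was an intercept-only limma 3.58.1 fit with trend on log2(CPM + 1), a pseudocount of 1. Counting noise and the fixed-trend Pearson statistic (40 bins of mean reads) used recovered reads, an addition because the deposited unit is log2. All p-values were adjusted by Benjamini-Hochberg over 13261 genes, with a threshold of 0.05. The members, lists and tests were chosen with earlier results of these data known. Named genes were set by a rule: the members, the highest, lowest and most variable gene of each pathway list and any with a ratio over 2, the highest and lowest gene of each marker list, and the nearest genes to Gpx3 (5) and to other members with a ratio over 1.5 (3). Marker lists outside the comparisons are given by their lowest and highest genes only in the closing section, and values of some single markers are not reported here. Levels per transcript length were planned, but no transcript lengths were at hand.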

Additional observations from a re-analysis of the deposited data

Results flagged for a closer look

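Dixon's ratio of the gap beside the most extreme animal to the whole range, at its 95% critical value, was applied to 73 reported results. It was met by 2, where chance alone gives 3.65, and over all genes 5.08% met it. Slc40a1, the iron exporter ferroportin, was set apart by replicate 3 (0.886), with 2.77 CPM against 4.90 to 5.28 CPM in the others (42 reads against 69 to 80). Ncf4, a subunit of the phagocyte NADPH oxidase, was set apart by replicate 1 (0.859). It had 5.64 CPM there against 11.0 to 12.2 CPM in the others (76 reads against 177 to 187). No member met the criterion, and of the 102 other genes of the pathway lists 6 did, these included.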

How the results depend on the processing

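Recomputing gave 1217 values: 62 moved, 1148 did not, 6 were no longer past their threshold and 1 was newly past it. The one newly past it was the number of members with excess variance, 0 by limma's trend and 1 (Gpx3) by the Pearson statistic at a fixed trend. With the robust prior, the other scalings, the other pseudocount, the deposited values, the filter of 50 reads and each replicate left out, limma called 0 members, but it called 0 of 13261 genes with all 4 animals, so these counts could not fall. The number beyond counting noise was 8 under every scaling and the filter, and 6 to 8 with a replicate left out. The SD of Gpx3 minus the cell-wide enzymes ran from 0.28 to 0.48 with a replicate left out and was 0.41 with their median; a length correction cannot change it. Of the 62, 40 were SDs of single genes without a replicate and 14 SDs with a pseudocount of 5 CPM, which lowers the SD of rare genes: 0.14 for Hmox1 and 0.16 for Nqo1. Without replicate 3 the SD of Gpx3 was 0.32 and that of Gpx1 0.06. The 276 means without a replicate could not leave their criterion by construction. The largest shift of the median gene by a scaling was 0.05 (log2), in replicate 2 with mitochondrial genes out of the totals. No paired analysis was possible because there is a single group. Depth limits Hmox1 and Nqo1, with about 100 reads per library. Alternatives for Gpx3 against the proximal tubule markers, for the fixed trend, for the largest SD of a list, for the order of animals in the lists and for the leukocyte sum were added after seeing the data.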

Other observations

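Enzymes that produce oxidants had a median SD of 0.33 over 10 genes, against 0.18 over all genes; this difference was not tested. Nox4, an NADPH oxidase of kidney cells that releases hydrogen peroxide, had 127.7, 68.6, 43.9 and 90.4 CPM in replicates 1 to 4, a ratio of 2.91 and the same order of animals as Gpx3 (fixed-trend adjusted p = 7.21e-07; unadjusted p = 0.00881 by limma, which called 0 genes after adjustment). Rac2, a GTPase of the phagocyte oxidase, ran the other way, with 16.9, 26.4, 41.8 and 26.4 CPM (fixed-trend adjusted p = 1.78e-05, but 0.0551 without replicate 1 and 0.427 without replicate 3), and was highest in replicate 3. Of 11 leukocyte markers, 4 were highest in replicate 3 (29.6% of all genes), 6 in replicate 2 (21.3%) and 1 in replicate 4 (21.4%). Nos3, the endothelial nitric oxide synthase, was the highest of the list at 214 ± 51.6 CPM (SD, n = 4) and was also highest in replicate 3. The next gene of the list, at 214 ± 16.4 CPM, tied with it at these digits. Maob, a mitochondrial amine oxidase, was lowest at 6.86 ± 1.51 CPM. Of 9 glomerular endothelial markers, 6 were highest in replicate 3 (29.6% of all genes). The mean of the 9 stood at -0.19, 0.11, 0.18 and -0.11 on the centred log2 scale in replicates 1 to 4. The part of endothelial, leukocyte and tubule markers in these values was not tested.

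Among genes of haem and iron handling, 6 of 10 varied beyond counting noise (69.5% of all genes) and 0 passed the fixed trend (7.53%). Hpx, the haem scavenger hemopexin, was the lowest at 3.17 ± 0.88 CPM (SD, n = 4), with 31 to 56 reads per library and a ratio of 2.02. Erythroid markers summed to 963, 1200, 1746 and 1225 CPM in replicates 1 to 4, and their part in the values of these genes was not tested.

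In the marker lists, Magi2 was the lowest podocyte gene, at 27.5 CPM, and proximal tubule genes ran from Slc34a1 at 1556 CPM to Slc5a12 at 106 CPM. Distal nephron genes ran from Umod at 333 CPM to Cldn16 at 5.79 CPM, endothelial genes from Kdr at 1782 CPM to Plvap at 202 CPM, and mesangial genes from Des at 926 CPM to Rgs5 at 17.9 CPM. Among leukocyte genes Cd3e was lowest, at 2.15 CPM, and Cd74 highest, at 653 CPM, and erythroid genes ran from Hba-a1 at 618 CPM to Hba-a3 at 7.74 CPM.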
